A study of Homo sapiens with 12 samples.

Results

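The expression of 54 genes for the core proteins of the spliceosome and its small nuclear ribonucleoproteins (snRNPs) was compared between control and SRSF2-labelled H358 lung carcinoma cells. The genes were taken from a fixed list of symbols, and every gene probe of the Agilent whole-genome arrays whose RefSeq accession maps to one of those symbols was used. This gave 80 probes for all 54 genes, out of 24330 probes and 11592 named genes that passed the filter on dim signals. RNA came from H358/Tet-On/SRSF2, a single clone of this human line that carries the splicing factor SRSF2 behind a Tet-responsive promoter. The 6 SRSF2 over-expression arrays held cells given 1 μg/mL doxycycline for 24 hours, and for the 6 control arrays, also of 24 hours, the labels give the treatment as none. An effect of doxycycline itself and an effect of the transgene cannot be told apart in this design.

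The spliceosome removes introns from pre-mRNA. U1 snRNP binds the 5′ splice site, SF1 and the U2AF proteins bind the branch point and the 3′ splice site, and U2 snRNP with its SF3A and SF3B complexes then takes the branch point. The U4/U6.U5 tri-snRNP joins next, and RNA helicases and the PRP19 complex remodel the assembly into the catalytic form. SRSF2 is an SR protein that binds exonic sequences and helps to recruit these parts.

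Labelled cRNA was hybridised to 12 one-colour arrays on 3 slides, each slide with 2 arrays of both conditions. Between 54.2% and 68.0% of the gene spots lay well above background, and no spot was saturated. The labeling information of the study gives 2 arrays for each of 3 labelings per condition, so some arrays within a condition share a labeling. It does not say whether the labelings used RNA of separate cultures. The p-values therefore measure technical spread, in part or wholly. With 3 labelings on either side an exact test could not go below 0.1. Epithelial markers were above background on all arrays for 8 of 8 genes, and fibroblast markers on none for 4 of 4 genes with a probe. The epithelial markers were not steady between the conditions. KRT7 differed by -1.33, KRT19 by -0.51 and MUC1 by -0.45 on the log2 scale. CLDN4 differed by 0.36, EPCAM by 0.20 and the brighter probe of KRT8 by 0.19, and CDH1 and KRT18 were not called. Above background on all arrays were 1 of 4 endothelial and 1 of 2 erythroid markers, while CDH5, KDR, HBB and the leukocyte marker PTPRC were so on none. The leukocyte markers CD14 and CD68 were above background on all arrays and differed by 0.20 (limma adjusted p = 0.217) and 0.05 (limma adjusted p = 0.572), and the brighter probe of CD3E was so on 5 of 6 arrays of each condition. PECAM1 fell by 0.47 and HBA1 fell by 0.87 on the log2 scale, VWF rose by 0.30, and their part in the results was not tested. Values are given as the log2 signal, with the 75th percentile of the array set to 0, and differences are the mean of the SRSF2-labelled arrays minus the mean of the control arrays. The probe of SRSF2 itself ran against the label, with a log2 signal of 3.73, 3.94 and 4.02 on the control arrays (lowest, median and highest) and 2.28, 2.49 and 2.51 on the SRSF2-labelled arrays. Its difference was -1.46 (standard error 0.06, limma adjusted p = 1.19e-09), so all directions here are those of the labels and the arrays are called SRSF2-labelled. The files do not say which part of the SRSF2 transcript this probe reads.

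Of the 54 genes, 11 were up-regulated and 13 down-regulated on the SRSF2-labelled arrays (limma, adjusted p up to 0.05), and 30 did not pass. SF3B4, a subunit of SF3B, had the largest rise (1.87-fold), and PRPF6, a tri-snRNP bridging protein, the largest fall (2.31-fold). The U4/U6 and tri-snRNP proteins held the most falls, with 5 of 8 genes, while 4 of 11 genes of U2 snRNP rose and 1 fell. The rises include SF3A1, counted by its brightest probe, although 2 of its 4 probes were called higher and 2 lower. As the background over all named genes tested, 30.2% were called higher and 30.5% lower, against 20.4% and 24.1% of the spliceosome genes. In these bulk samples, fewer cells with a transcript and less of it per cell cannot be told apart.

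Most changes in the list were small. Only PRPF6 changed at least 2-fold, 1 of 54 genes against 5.31% of all named genes. At a 1.5-fold threshold 1 gene was higher (SF3B4) and 4 were lower (PRPF6, PRPF38A, LSM7 and DHX16), against backgrounds of 9.55% and 11.3%. The median difference over the 54 genes was -0.02, beside -0.01 over all named genes, and the median size of the difference, whatever its sign, was 0.16 against 0.29. For 6 genes every SRSF2-labelled array lay above every control array and for 10 genes below, while 22.0% and 21.2% of all named genes separated in these directions. All 24 called genes differed in the same direction on each of the 3 slides. The slides are parts of the same arrays that gave the calls, so this is a description and not a separate test.

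The balance of rises and falls moved with scaling on spike-in controls, and other settings changed the counts. Scaling on the median gave 9 genes higher and 13 lower, against 3175 and 3609 of the 11592 named genes. Quantile normalization gave 12 and 13, against 3532 and 3596. Scaled on 7 spike-in control probes, 6 of the 54 genes were called higher and 1 lower, against 18.8% and 5.74% of all named genes, whose median moved to 0.20. With slide 1 also left out, 2 were higher and 7 lower, against 11.4% and 13.2%. With slide as a block, 18 genes were higher and 17 lower, against 35.7% and 36.7% of all named genes, and all 24 of the calls above were among them. With the 2 arrays of a slide averaged into 1 replicate, 6 genes were higher and 9 lower, all of them among the 24, against 19.1% and 20.6%. With normexp background correction limma called 0 genes higher and 2 lower (PRPF3 and PRPF6), with 4 and 6 genes at an unadjusted p under 0.05, and the backgrounds were 6.71% and 7.16%.

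**Figure D1:**
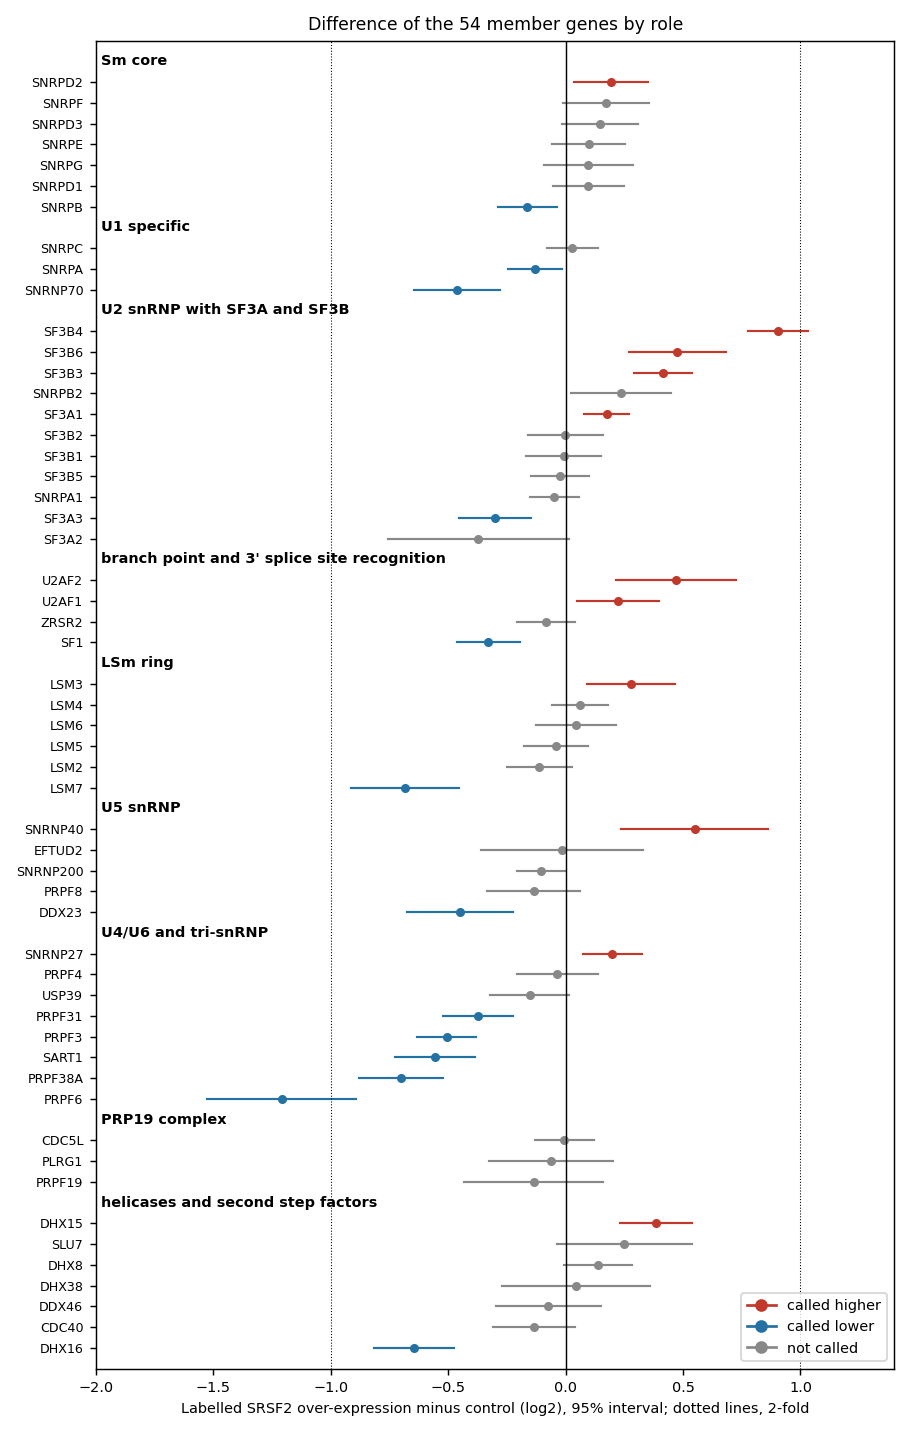
Differences of the 54 genes (points, log2 scale, SRSF2-labelled minus control, 6 arrays each, fewer where an outlier spot was left out) with 95% intervals of limma, ordered by role, with dotted lines at 2-fold. Blue points crowd the U4/U6 and tri-snRNP group, where 5 of 8 genes were lower, and PRPF6 alone lies beyond the 2-fold line.

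The tri-snRNP carries U6 RNA, paired with U4, to the spliceosome. PRPF6 holds U5 to U4/U6 in this particle. Its log2 signal was 3.49, 3.82 and 3.98 on the control arrays (lowest, median and highest) and 2.31, 2.41 and 3.11 on the SRSF2-labelled arrays, so the arrays of the conditions did not overlap. The arrays differed by -1.21 (standard error 0.15, limma adjusted p = 1.36e-05), which is 2.31-fold, and the differences within slides ranged from -1.45 to -0.92. PRPF6 was called lower under all 20 alternative settings, with differences from -1.35 to -0.99.

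PRPF38A, which is needed for activation of the spliceosome, gave a log2 signal of 1.09, 1.35 and 1.49 on the control arrays (lowest, median and highest) and 0.51, 0.59 and 0.85 on the SRSF2-labelled arrays. The arrays separated fully here too, and the difference was -0.70 (standard error 0.08, limma adjusted p = 1.08e-05). SART1, a tri-snRNP protein that is essential for its recruitment, gave 2.68, 2.77 and 2.94 against 2.12, 2.15 and 2.47 (lowest, median and highest, control against SRSF2-labelled). Its difference was -0.56 (standard error 0.08, limma adjusted p = 5.35e-05), again without overlap. PRPF3, a protein of U4/U6, gave 0.23, 0.30 and 0.39 against -0.35, -0.19 and -0.08 in the same order. The arrays did not overlap, the difference was -0.51 (standard error 0.06, limma adjusted p = 8.16e-06), and the slides gave -0.57 to -0.47.

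PRPF31, which binds the U4 stem loop and is known for its role in inherited retinal degeneration, had 2 probes that both fell. Its brighter probe gave 4.03, 4.24 and 4.34 against 3.72, 3.89 and 3.93, which did not overlap, and a difference of -0.37 (standard error 0.07, limma adjusted p = 0.000451). Slide 3 showed the smallest of its slide differences, and these spanned -0.51 to -0.21. PRPF4, the partner of PRPF3, differed by -0.03 (limma adjusted p = 0.735), and USP39 by -0.15 (limma adjusted p = 0.105), and neither passed, although USP39 was called lower with slide as a block. Averaging the 2 arrays of a slide into 1 replicate left all 5 falls called. Under spike-in scaling PRPF6 alone of the 5 kept its call, and with slide 1 also left out PRPF3, PRPF38A and SART1 were called with it. SNRNP27, an RS-domain protein of the tri-snRNP, was the exception in the other direction. Its log2 signal was 1.52, 1.57 and 1.71 on the control arrays (lowest, median and highest) and 1.65, 1.81 and 1.93 on the SRSF2-labelled arrays, which overlapped. It rose by 0.20 (standard error 0.06, limma adjusted p = 0.0107), and 5 of 20 alternatives took its call away.

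Of the other tri-snRNP and U6 proteins outside the list, 2 of 8 genes measured were called higher and 4 lower. The 4 were LSM8 with -0.95, PPIH with -0.63, TXNL4A with -0.51 and WBP4 with -0.38, and the 2 were MFAP1 with 0.30 and SNU13 with 0.20 on the log2 scale. These genes are named with their values known.

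**Figure D2:**
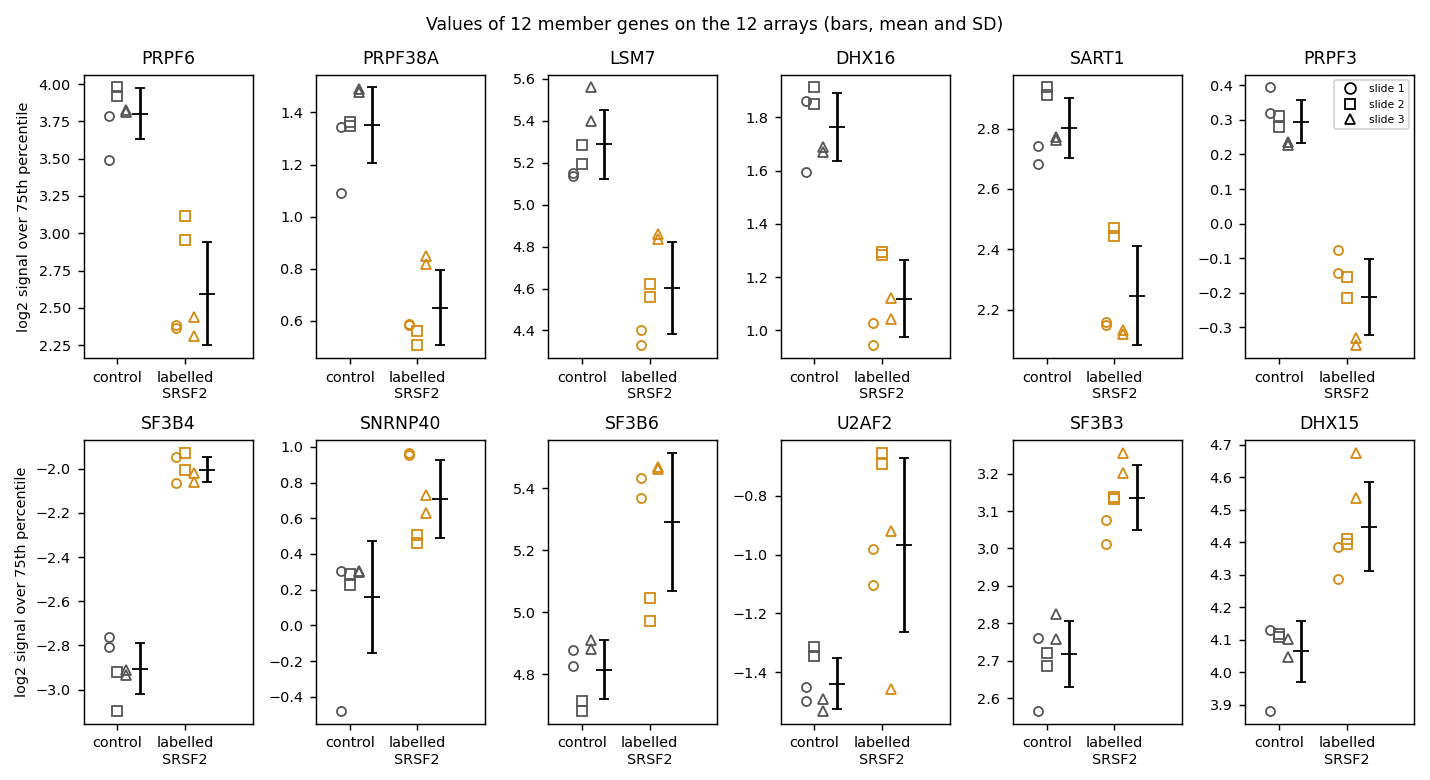
Log2 signal (the 75th percentile of each array is 0) for the 6 largest called falls (top) and the 6 largest called rises (bottom), with the 6 arrays per condition marked by slide and bars for the mean and SD. The conditions do not overlap in any top panel, and they overlap in the bottom row only for U2AF2. The control point that stands low in the SNRNP40 panel is array 2 on slide 1.

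U2 snRNP showed both directions. SF3B4, the SF3B protein that contacts pre-mRNA next to the branch point, had a log2 signal of -3.10, -2.92 and -2.76 on the control arrays (lowest, median and highest) and -2.06, -2.01 and -1.93 on the SRSF2-labelled arrays. All SRSF2-labelled arrays were higher, and the difference of 0.90 (standard error 0.06, limma adjusted p = 5.38e-08) was 1.87-fold, within slides 0.78 to 1.04. Its probe was well above background on all 12 arrays, but with normexp background correction the difference was 0.22 (limma adjusted p = 0.725). SF3B6, the small SF3B subunit beside the branch point adenosine, gave 4.68, 4.85 and 4.91 against 4.97, 5.40 and 5.47, a rise of 0.48 (standard error 0.10, limma adjusted p = 0.000863). SF3B3, a scaffold subunit of SF3B, gave 2.57, 2.74 and 2.83 against 3.01, 3.13 and 3.26, a rise of 0.42 (standard error 0.06, limma adjusted p = 4.05e-05). Neither gene overlapped between the conditions. All 3 rises were also called under spike-in scaling and with the 2 arrays of a slide averaged, but under spike-in scaling with slide 1 left out SF3B6 (0.46, limma adjusted p = 0.211) and SF3B3 (0.46, limma adjusted p = 0.095) lost their calls.

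SF3B1, the largest SF3B subunit and a gene often mutated in myeloid disease, did not pass. Its log2 signal was 3.95, 4.03 and 4.10 on the control arrays (lowest, median and highest) and 3.84, 4.00 and 4.25 on the SRSF2-labelled arrays, with the values of the conditions interleaved. The difference was -0.01 (limma adjusted p = 0.927), and its 95% interval of -0.17 to 0.15 leaves room for small changes either way. SF3B2 and SF3B5 also lay near 0, at -0.0009 (limma adjusted p = 0.992) and -0.02 (limma adjusted p = 0.753). PHF5A, an SF3B subunit outside the list, rose by 0.62 (limma adjusted p = 1.03e-05) and is named with its value known.

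In SF3A, the complex that joins SF3B to U2, SF3A3 gave 3.66, 3.81 and 4.04 against 3.45, 3.51 and 3.69, a difference of -0.30 (limma adjusted p = 0.00267). The lowest control array lay below the highest SRSF2-labelled array. SF3A2 had a larger difference of -0.37 (limma adjusted p = 0.0904), but its slides disagreed, from -0.69 to 0.26. SF3A1 was represented by 4 probes that were all called, and they did not move one way. The brightest probe rose by 0.17 (limma adjusted p = 0.00403) and A_24_P374154 by 0.23 (limma adjusted p = 0.000423), whereas A_23_P211436 fell by 0.27 (limma adjusted p = 0.000202) and A_24_P250614 fell by 0.30 (limma adjusted p = 0.0407). For A_23_P211436 the log2 signal was 1.59, 1.63 and 1.66 against 1.27, 1.36 and 1.48, without overlap and opposite to the brightest probe, which gave 2.78, 2.85 and 2.93 against 2.97, 3.01 and 3.09. A direction for the gene as a whole is therefore not given, although it is counted as higher by its brightest probe. Of the U2-specific proteins, SNRPA1 differed by -0.05 (limma adjusted p = 0.426) and SNRPB2 by 0.24 (limma adjusted p = 0.0542). The other probe of SNRPB2 rose by 0.39 (limma adjusted p = 0.00239), with no overlap, and the brighter was called higher with slide as a block.

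The factors that first mark the branch point and 3′ splice site also split. U2AF2, the U2AF subunit that binds the polypyrimidine tract, gave -1.53, -1.47 and -1.32 on the control arrays (lowest, median and highest) and -1.46, -0.95 and -0.65 on the SRSF2-labelled arrays. A single SRSF2-labelled array on slide 3 lay within the control range and the rest above it, and the difference was 0.47 (standard error 0.12, limma adjusted p = 0.0041). U2AF1, which reads the AG at the intron end, gave 6.21, 6.42 and 6.57 against 6.46, 6.60 and 6.75, a rise of 0.22 (limma adjusted p = 0.0307). It had 5 SRSF2-labelled arrays and overlapped between conditions, and 12 of 20 alternatives took its call away. Without control array 2 its difference was 0.19 (limma adjusted p = 0.0561). SF1, the branch point binding protein, was down-regulated on both of its probes. The brighter gave 4.10, 4.18 and 4.38 against 3.83, 3.88 and 3.98, without overlap, and fell by 0.33 (standard error 0.06, limma adjusted p = 0.000621) with 5 control arrays. With outlier spots kept its difference was -0.24 (limma adjusted p = 0.0552), and 5 of 20 alternatives took its call away. The dimmer probe of SF1 fell by 0.57 (limma adjusted p = 0.0442), with overlap. ZRSR2, the 3′ splice site factor of U12-type introns, differed by -0.08 (limma adjusted p = 0.229) with a 95% interval of -0.21 to 0.04.

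The 100 bases before the start site of 4 of these genes are shown because genes that changed in opposite directions held the same short sequence there. The windows are from RefSeq on GRCh38.p14, 5′ to 3′ on the strand of the gene, and end at the base before the start. PRPF6 (plus strand, chr20:63981032-63981131) and SART1 (plus strand, chr11:65961634-65961733) were lower, and SF3B4 (minus strand, chr1:149927804-149927903) and SF3B6 (minus strand, chr2:24076327-24076426) were higher. Capitals mark CCGGAAG, the core of sites for ETS factors, or its reverse complement CTTCCGG, and in all 4 they lie within 26 bases of the start.
PRPF6: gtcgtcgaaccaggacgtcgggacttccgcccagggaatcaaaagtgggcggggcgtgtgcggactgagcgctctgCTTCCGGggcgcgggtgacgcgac
SART1: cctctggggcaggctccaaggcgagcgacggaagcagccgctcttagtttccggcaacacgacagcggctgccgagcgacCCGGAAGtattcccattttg
SF3B4: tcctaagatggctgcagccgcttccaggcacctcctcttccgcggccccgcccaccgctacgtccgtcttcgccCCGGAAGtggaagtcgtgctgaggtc
SF3B6: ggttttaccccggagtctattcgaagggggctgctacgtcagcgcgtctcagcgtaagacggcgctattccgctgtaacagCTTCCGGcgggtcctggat
RefSeq promoters of 300 bases were matched to 50 of the 54 genes by symbol, and 25 of these 50 held CCGGAAG on either strand, against 19.5% of the 9454 named genes tested that have a promoter in the table. Among the members called higher 6 of 10 held it, among those called lower 5 of 12, and among those not called 14 of 28. The CCAAT box, read as CCAAT on either strand, was in 20 of 50 against 37.5% of all named genes, and TATAAA in 2 of 50 against 6.15%. NRF1 letters (GCATGCGC) were in 4 of 50 against 5.58%, YY1 letters (AAGATGGCG) in 4 of 50 against 4.01%, and CACGTG in 2 of 50 against 10.1%. The median GC content was 60.5% in the members and 65.0% in all named genes. A match describes the letters of the window and is not a measured binding site.

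The Sm proteins form the ring around the U1, U2, U4 and U5 RNAs, and this group of 7 moved little. SNRPD2 was up-regulated and SNRPB down-regulated, and 5 genes did not pass. SNRPD2 gave 5.44, 5.57 and 5.70 against 5.55, 5.73 and 5.91, with overlap, and a difference of 0.19 (limma adjusted p = 0.0347). SNRPB, which encodes SmB and SmB′, gave 3.07, 3.27 and 3.34 against 2.96, 3.09 and 3.12, also with overlap, and fell by 0.16 (limma adjusted p = 0.0297). Both calls were lost without control array 2, where SNRPD2 differed by 0.17 (limma adjusted p = 0.066) and SNRPB by -0.15 (limma adjusted p = 0.0522). Under spike-in scaling the difference of SNRPB reversed to 0.05. SNRPD1, SNRPD3, SNRPE, SNRPF and SNRPG all had positive differences, from 0.10 to 0.17, and none passed on the brightest probe. The second probe of SNRPD1 rose by 0.21 (limma adjusted p = 0.0127), with overlap. With slide as a block, SNRPD1, SNRPD3, SNRPF and SNRPG were also called higher.

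Of the U1-specific proteins, 0 of 3 were called higher by limma, 0 at an unadjusted p under 0.05, and 2 were lower. SNRNP70, the U1 70K protein that contacts SR proteins, gave 5.47, 5.70 and 5.73 on the control arrays (lowest, median and highest) and 5.04, 5.07 and 5.40 on the SRSF2-labelled arrays. Every SRSF2-labelled array was below every control array, and the difference was -0.46 (standard error 0.08, limma adjusted p = 0.000443). The second probe of SNRNP70 fell by 0.50 (limma adjusted p = 0.000116). SNRPA, the A protein of U1, fell on all 3 of its probes, and it fell by 0.13 (limma adjusted p = 0.0499) on the brightest, which had 5 control arrays. This call was lost without control array 2, and with outlier spots kept it was lost and the sign of the difference reversed. SNRPC, which stabilises U1 at the 5′ splice site, differed by 0.03 (limma adjusted p = 0.653).

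In the LSm ring, which holds the end of U6 RNA and in another form takes part in mRNA decay, LSM7 stood apart. Its log2 signal was 5.14, 5.24 and 5.56 on the control arrays (lowest, median and highest) and 4.33, 4.59 and 4.86 on the SRSF2-labelled arrays, without overlap, and the difference of -0.69 (standard error 0.11, limma adjusted p = 0.000115) was 1.61-fold. LSM3 moved the other way and gave 4.40, 4.42 and 4.66 against 4.58, 4.72 and 5.04, with overlap. It rose by 0.28 (limma adjusted p = 0.0136), and its second probe rose as well. For LSM3, 6 of 20 alternatives took the call away. The other 4 ring genes lay between -0.11 (LSM2) and 0.06 (LSM4), and none passed, although LSM2 was called lower with slide as a block.

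Among the U5 proteins, SNRNP40, a WD repeat protein, gave -0.48, 0.29 and 0.31 against 0.46, 0.68 and 0.97, a rise of 0.55 (standard error 0.14, limma adjusted p = 0.00544), without overlap. Control array 2 lay well under the other control arrays, and without it the difference was 0.42 (limma adjusted p = 0.00237). Slide 1 gave a difference of 1.05, against 0.22 for slide 2 and 0.38 for slide 3. The second probe of SNRNP40 also rose, by 0.72 (limma adjusted p = 0.00352). DDX23, the helicase that prepares the exchange of U1 for U6, gave 3.25, 3.41 and 3.64 against 2.76, 2.98 and 3.25, a difference of -0.45 (standard error 0.10, limma adjusted p = 0.00246). The lowest control value (3.247) and the highest SRSF2-labelled value (3.246) all but met.

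The large U5 proteins at the catalytic core did not pass in the fit without a block. PRPF8, which cradles the active site, gave 3.29, 3.53 and 3.56 on the control arrays (lowest, median and highest) and 3.19, 3.21 and 3.58 on the SRSF2-labelled arrays. The arrays overlapped widely, and the difference was -0.14 (limma adjusted p = 0.219) with an interval of -0.33 to 0.06. A slide block in the fit gave PRPF8 a call (-0.14, limma adjusted p = 0.0438), and so did leaving out slide 2 (-0.22, limma adjusted p = 0.0299). SNRNP200, the helicase that unwinds U4/U6, differed by -0.10 (limma adjusted p = 0.0757) and was called lower with slide as a block and without control array 2. EFTUD2, the GTPase of U5, differed by -0.02 (limma adjusted p = 0.94), with an interval of -0.36 to 0.33 and a lowest control value of 4.10. That value was control array 2 on slide 1, where the difference was 0.25, against -0.07 on slide 2 and -0.22 on slide 3. Without that array EFTUD2 was not called either.

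The PRP19 complex genes did not pass, with limma calling 0 of 3, and 0 at an unadjusted p under 0.05. CDC5L differed by -0.01, PLRG1 by -0.06 and PRPF19, its ubiquitin ligase, by -0.14 on the log2 scale. PLRG1 changed sign between slides, from -0.30 to 0.36. Without control array 2 PLRG1 was called lower.

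Helicases that drive the later steps moved singly. DHX16, which acts just before the first step of splicing, gave 1.60, 1.77 and 1.91 against 0.94, 1.08 and 1.30, a difference of -0.64 (standard error 0.08, limma adjusted p = 1.47e-05), without overlap. DHX15, which takes the spliceosome apart, gave 3.88, 4.11 and 4.13 against 4.29, 4.40 and 4.68, a rise of 0.38 (standard error 0.07, limma adjusted p = 0.000431), without overlap. DHX8 and DHX38 did not pass, at 0.14 (limma adjusted p = 0.0919) and 0.04 (limma adjusted p = 0.817). DHX8 was called higher without control array 2 and with slide as a block. For 3 genes of this group the probes gave unlike answers. DDX46, a helicase of early assembly, differed by -0.07 (limma adjusted p = 0.567) on its brighter probe and by -0.52 (limma adjusted p = 1.31e-05) on the dimmer, where the arrays did not overlap. SLU7, a second step factor, differed by 0.25 (limma adjusted p = 0.123) on the brightest probe and rose by 0.46 (limma adjusted p = 0.00599) on another, and the brightest was called higher with slide as a block. CDC40, another second step factor, had 4 probes, of which only A_23_P351314 passed, with a rise of 0.44 (limma adjusted p = 0.000112) and no overlap, while the brightest gave -0.13 (limma adjusted p = 0.172).

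**Figure D3:**
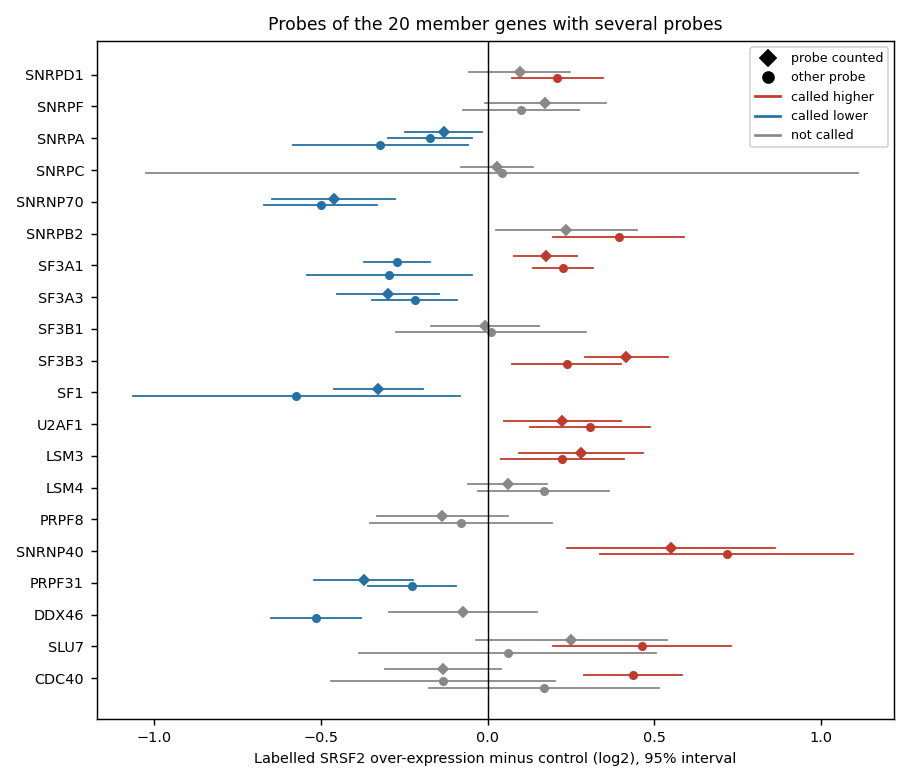
Differences (log2, SRSF2-labelled minus control, with 95% intervals) for every probe of the 20 genes with several probes, with the brightest probe as a diamond. The probes share a direction in all but 3 genes (SF3A1, SF3B1 and CDC40), and those of SF3A1 were called in both directions.

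In all, 20 genes had several probes. Those of 3 genes differed in sign, and of these SF3A1 was the only gene with calls both ways. Over the 80 probes, 20 were called higher, 22 lower and 38 not. By any probe, 29 of the 54 genes had a call and 25 had none. Neither count was made over all probes or all named genes, so neither has a background here. Counted by the brightest probe alone, 24 of the 54 genes had a call, against 60.7% of all named genes. Genes that did not pass had 95% intervals that reached a median of 0.16 to either side of the difference, so a change of that size could be missed in them.

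**Figure D4:**
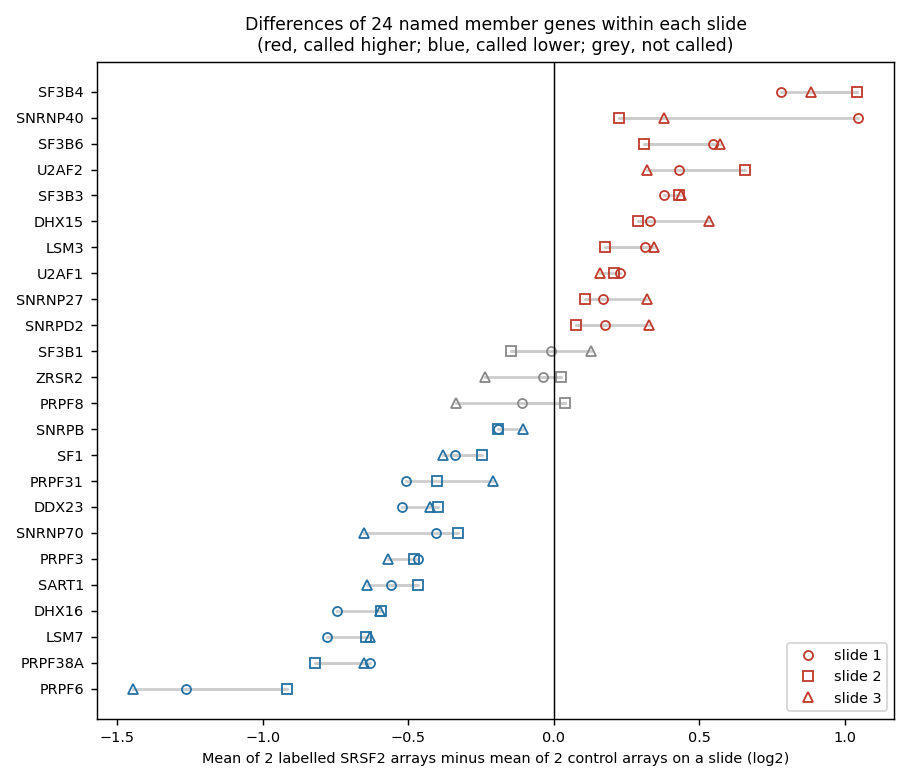
Differences of 24 named genes within each slide (log2, mean of 2 SRSF2-labelled arrays minus mean of 2 control arrays), coloured by the call over all arrays. For all called genes the 3 slides lie on the same side of 0, but these are the arrays that gave the calls. SNRNP40 shows the widest gap between slides among the rises, from 0.22 to 1.05.

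Around the core, other spliceosome genes from lists outside the members were called higher in 25 of 67 measured cases and lower in 21, beside 30.2% and 30.5% of all named genes, which is also the background of the smaller lists here. Genes for snRNP assembly were called higher in 10 of 16 cases and lower in 3. They included COIL, the marker protein of Cajal bodies, with 1.17 (limma adjusted p = 3.53e-07), PHAX, the snRNA export adaptor, with 0.91 (limma adjusted p = 1.09e-08), SART3, a U6 recycling factor, with 0.83 (limma adjusted p = 1.28e-07), and GEMIN4 of the SMN complex with 0.63 (limma adjusted p = 1.44e-05). GEMIN2 fell by 0.42 (limma adjusted p = 4.81e-05) and GEMIN8 fell by 0.52 (limma adjusted p = 1.56e-05). In the minor spliceosome limma called 0 of 7 genes higher, 0 at an unadjusted p under 0.05, and 4 lower, led by RNPC3 with -0.65 (limma adjusted p = 1.38e-06). In the exon junction complex 2 of 4 genes rose, namely EIF4A3 (0.39) and CASC3 (0.23), and 0 were called lower, 0 at an unadjusted p under 0.05. The largest difference in this complex was that of MAGOH, at -0.80, which did not pass (limma adjusted p = 0.0922). RBM8A differed by 0.06 (limma adjusted p = 0.432). Other PRP19-related and catalytic step genes rose in 9 of 18 cases and fell in 5, and other early complex genes rose in 2 of 14 and fell in 5. These genes are named with their values known.

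**Figure D5:**
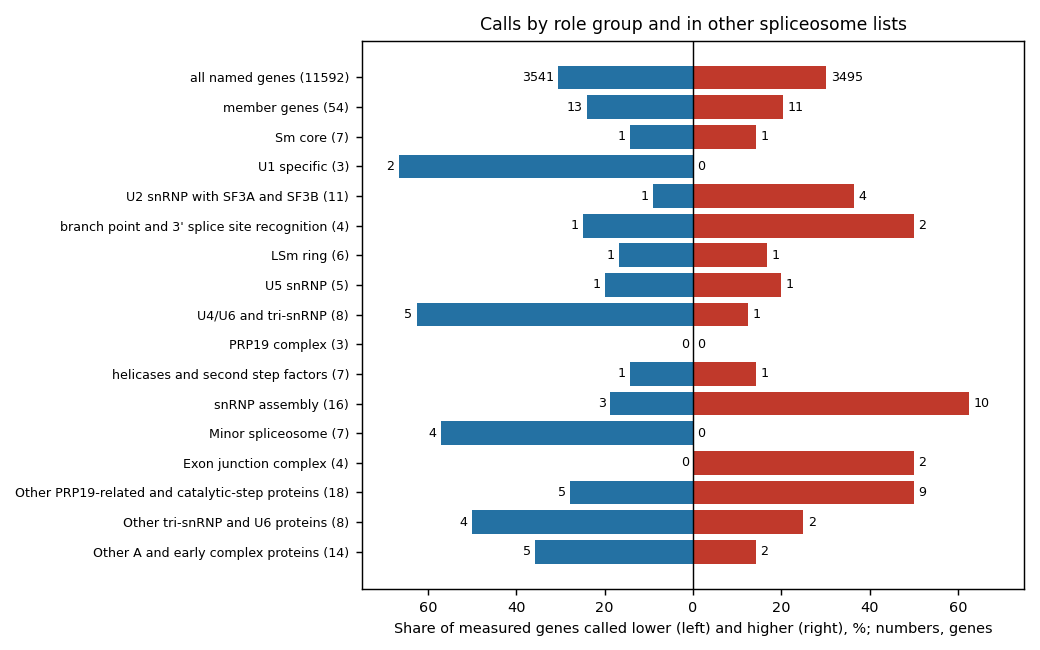
Share of measured genes called lower (left, blue) and higher (right, red) (limma, adjusted p up to 0.05), with the number of genes at each bar and the number measured in brackets, for the 54 genes, their 9 role groups, other spliceosome lists and all named genes. The snRNP assembly bar points mostly right (10 of 16) and the U4/U6 and tri-snRNP bar mostly left (5 of 8).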

How the data were processed

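Expression was measured on 12 one-colour arrays, grouped by their labels into 6 per condition. The authors deposited scanner output of Feature Extraction 10.7.3.1, whose processed intensity has the background removed, and a log2 table. That deposited log2 table was found to hold the processed signal after subtraction of the 75th percentile of the array and centring of every probe on its median. The files name hg18 as the build of their annotation, so gene coordinates are not taken from them. The member genes, gene lists, rule for named genes and alternatives were chosen with earlier results of these data known.

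Starting from the processed intensities, spots of a probe were averaged as log2 values, outlier spots were left out, and each array was scaled on its 75th percentile over gene probes. Probes had to be present on 75% of the arrays and, in 1 condition or both, well above background on 5 or more of its 6 arrays, and 24330 passed. Gene names came from matching RefSeq accessions with a table of GRCh38.p14 genes (23958 of 25868 probes that carry an accession were named). The test was limma 3.58.1 (lmFit, eBayes; R 4.3.3) with no covariate and Benjamini-Hochberg adjustment over all probes kept, and a call is an adjusted p of at most 0.05. A gene is counted by its kept probe with the highest mean. Named genes were the 10 largest rises and 10 largest falls among called members above background in both conditions, any member changed at least 2-fold, SF3B1, U2AF1, ZRSR2, SF1, PRPF8 and SNRPB, and probes that disagree in sign with a call. In a simulation with independent arrays and 200 changed probes out of 23740, limma recovered 173 of the 200 and called 7 others. The real arrays share slides and labelings and far more of their probes were called. The simulation therefore checks the fit and does not give the rate of false calls here.

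The 6 pairs of arrays with the same number in both conditions had deviations from the group means that correlated at 0.28 to 0.64. Arrays that shared a slide but not a number reached 0.33 to 0.65, and those of different slides -0.48 to -0.05, and the pairing is therefore by slide.

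Alternatives changed the scaling (median, quantiles, spike-in controls), the background (normexp with offset 50, or none subtracted), the filter on dim probes, the treatment of outlier spots, the source of values (the table of the authors), the test (the methods' t-test), the block (slide or replicate number), the unit (2 arrays averaged, all probes of a gene averaged), the slides used and the fold threshold (1.5). Leaving out control array 2, leaving out the 2 arrays with the fewest spots above background, and spike-in scaling with slide 1 left out were chosen after seeing the data. Median spot intensities took the place of mean ones in the background alternatives. The number of arrays limits the precision. A further marker of the leukocyte list, and so the count over that list, is not reported here.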

Additional observations from a re-analysis of the deposited data

Results flagged for a closer look

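Among 56 groups of 6 arrays, given by the named probes and the SRSF2 probe in either condition, 3 held an array far from the others, and chance flags about 1 in 20 groups. All 3 are control array 2. SNRNP40 had a log2 signal of -0.48 on that array, and of 0.23 to 0.31 on the other control arrays. DHX15 lay at 3.88 against 4.05 to 4.13, and PRPF38A at 1.09 against 1.34 to 1.49. Without this array the differences were 0.42, 0.35 and -0.75 on the log2 scale (limma adjusted p = 0.00237, 0.000782 and 3.8e-06), and the calls of SNRPD2, U2AF1, SNRPB and SNRPA were lost.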

How the results depend on the processing

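Over the 21 settings of the fit, the main one included, the number of member genes changed at least 2-fold stayed at 1. The gene was not always PRPF6. Under spike-in scaling it was SF3B4, which was higher (1.12), while PRPF6 lay at -0.99. The SRSF2 probe stayed lower, by 1.25 to 1.49 on the log2 scale. With the replicate block, 15 member genes were called higher and 14 lower, against 3887 and 3979 of the 11592 named genes. All 24 main calls were among the member calls. The counts moved most with spike-in scaling (6 higher, 1 lower, and 2 and 7 with slide 1 left out), with normexp (0 higher, 2 lower), with slide as a block (18 higher) and with the mean of 2 arrays as 1 replicate (6 higher, with 9 lower). At a 1.5-fold threshold 1 was higher and 4 lower. With a slide left out, 8 to 13 were higher and 13 lower, while 51.4% to 59.8% of all named genes were called in either direction. The median over member genes was -0.02, with 0.19 under spike-in scaling and 0.12 under normexp. Of the main calls, 22 of 24 kept their sign under spike-in scaling and 23 under normexp. With outlier spots kept, and in the table of the authors, 23 kept it and SNRPA reversed. With all probes of a gene averaged, 23 kept it and SF3A1 reversed.

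Some differences changed sign, both of uncalled genes and of called ones such as SNRPA and SF3A1 above. SF3B1 was at 0.0027 with quantile normalization, 0.21 with spike-in scaling (0.015 with slide 1 left out), 0.14 with normexp, from -0.078 to 0.060 with a slide left out, 0.0085 without the 2 arrays with the fewest spots above background and 0.0000 as the mean of its probes. ZRSR2 was at 0.13 with spike-in scaling and 0.048 with normexp, and PRPF8 was at 0.079 with spike-in scaling. SNRPB, which was called lower, was at 0.053 with spike-in scaling. The cause was not tested. Under normexp the calls of 22 named probes were lost. Of the 80 member probes, 73 were well above background on all 12 arrays.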
